A study of Mus musculus with 12 samples.

Results

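Accessible regions that were called in every library of one macrophage cohort and in no library of a parallel cohort were examined here. Peaks from 12 ATAC-seq libraries were merged across the 19 mouse autosomes wherever they overlapped by at least 1 bp, which gave 144562 regions. Of these, 69364 were called in all 4 libraries of the first cohort. Members were the 22633 regions called in all 4 of those libraries and in none of the 8 libraries of the second, ApoE KO cohort, or 32.6% of the 69364. Members were chosen by peak calls, so that share and the absence from the ApoE KO lists describe the rule and are not findings. A missing call says that no peak passed the caller, not that the chromatin was closed.

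All libraries came from primary bone marrow-derived macrophages (BMDMs), which are macrophages grown from mouse marrow in culture. The first cohort had 1 library for each of 4 groups, namely KO with oxLDL, WT with oxLDL, KO untreated and WT untreated, where KO and WT refer to Baf60a. The ApoE KO cohort had 2 libraries for each of the same 4 combinations. There KO cells were Baf60a f/f, Lyz2 Cre+ and WT cells were Baf60a f/f, Lyz2 Cre-, and both carried the ApoE KO. Lyz2 Cre acts in myeloid cells, including macrophages, and the controls kept the floxed allele. The alleles, Cre driver and ApoE state of the first cohort are not stated beyond Baf60a KO or WT. Treated cells received oxLDL (oxidised low-density lipoprotein) at 50 µg/ml for 48 hours. No age, strain or number of animals is given, so how far libraries stand for separate animals is unknown.

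The cohorts differed in their preparation. The first was prepared from cell suspensions by Omni-ATAC, a version of the assay designed to lower background, and its peaks were called with MACS3. The second was prepared by a service laboratory from cryopreserved cells with a Nextera kit, and its peaks were called with MACS2. Autosomal lists held 93867 peaks in KO oxLDL, 80394 in WT oxLDL, 138132 in KO untreated and 106477 in WT untreated cells of the first cohort, but 24397 to 44524 peaks in the ApoE KO libraries. Any difference at ApoE, and the differences in cell storage, protocol, laboratory, caller and list length, therefore cannot be told apart as sources of the membership. Read depth is unknown, because the files hold peaks and not reads. In such libraries of many cells, fewer cells with an open region and less open DNA per cell cannot be told apart either.

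ATAC-seq marks accessible chromatin by letting a transposase insert sequencing adapters where DNA is not shielded by nucleosomes. Promoters rich in CpG dinucleotides tend to be open in many cell types, whereas enhancers, which lie inside and between genes, are opened by the transcription factors of a cell type and are usually weaker. Baf60a is the product of Smarcd1 and belongs to SWI/SNF complexes, the ATP-driven remodellers that move or evict nucleosomes and help keep enhancers accessible. OxLDL is taken up by macrophages through scavenger receptors, loads them with cholesterol and is used to model the foam cells of atherosclerotic plaques.

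The cell label was compared with peaks at gene boundaries. Of 14 macrophage markers, 13 to 14 had a peak centred within 1 kb of a gene boundary in the libraries of the first cohort, and 11 to 14 had one in the ApoE KO libraries. Averaged over libraries, that is 96.4% and 91.1% of the markers. For marker lists of other blood and tissue cells, the averages were 27.3% to 66.1% in the first and 3.41% to 36.6% in the ApoE KO cohort. The count was not made over all genes. Smarcd1 itself had a region at its promoter that was called in all 12 libraries, KO libraries included. The deleted exons are not given, so that region does not check the KO label.

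The promoter sequences that members touched show what kind of start site entered the set. RefSeq promoter windows, running from 250 bases before to 50 bases after a transcription start, were taken from RefSeq on GRCm38.p6, the assembly of mm10. The 6 shown belong to the members with the highest minimum score among those that touched a protein-coding promoter in the windows used here, which leave out 1 of the 19 autosomes, and the Smarcd1 window is given for contrast because its region was called in all 12 libraries. Each runs 5′ to 3′ on the gene's strand, and capitals mark CpG dinucleotides. R3hdm2 lies at chr10:127420617-127420916 (+ strand), Cd5l at chr3:87357631-87357930 (+ strand), Ak1 at chr2:32629250-32629549 (+ strand), Cyth1 at chr11:118202681-118202980 (- strand), Abl1 at chr2:31759689-31759988 (+ strand), Kif7 at chr7:79715658-79715957 (- strand) and Smarcd1 at chr15:99702037-99702336 (+ strand).
R3hdm2: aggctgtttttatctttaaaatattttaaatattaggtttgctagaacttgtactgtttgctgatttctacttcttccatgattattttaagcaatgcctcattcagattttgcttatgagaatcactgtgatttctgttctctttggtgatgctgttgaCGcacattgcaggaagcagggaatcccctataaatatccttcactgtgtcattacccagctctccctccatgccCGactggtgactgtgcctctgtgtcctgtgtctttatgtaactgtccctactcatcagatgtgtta
Cd5l: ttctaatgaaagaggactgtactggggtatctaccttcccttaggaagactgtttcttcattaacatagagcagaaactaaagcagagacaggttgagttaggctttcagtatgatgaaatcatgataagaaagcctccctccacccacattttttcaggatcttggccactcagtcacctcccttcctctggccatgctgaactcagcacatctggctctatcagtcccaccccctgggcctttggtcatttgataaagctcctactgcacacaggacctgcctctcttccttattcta
Ak1: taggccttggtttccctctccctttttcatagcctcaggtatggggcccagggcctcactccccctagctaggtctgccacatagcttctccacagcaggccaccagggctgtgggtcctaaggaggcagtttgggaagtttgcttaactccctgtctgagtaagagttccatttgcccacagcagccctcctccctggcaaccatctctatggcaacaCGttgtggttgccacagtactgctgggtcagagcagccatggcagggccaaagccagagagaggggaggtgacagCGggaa
Cyth1: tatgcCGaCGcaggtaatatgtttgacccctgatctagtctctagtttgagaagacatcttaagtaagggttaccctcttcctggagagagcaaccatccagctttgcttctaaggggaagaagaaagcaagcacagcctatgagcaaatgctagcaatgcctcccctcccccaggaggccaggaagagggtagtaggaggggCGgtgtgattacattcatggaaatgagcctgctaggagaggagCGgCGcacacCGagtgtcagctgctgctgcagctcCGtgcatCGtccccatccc
Abl1: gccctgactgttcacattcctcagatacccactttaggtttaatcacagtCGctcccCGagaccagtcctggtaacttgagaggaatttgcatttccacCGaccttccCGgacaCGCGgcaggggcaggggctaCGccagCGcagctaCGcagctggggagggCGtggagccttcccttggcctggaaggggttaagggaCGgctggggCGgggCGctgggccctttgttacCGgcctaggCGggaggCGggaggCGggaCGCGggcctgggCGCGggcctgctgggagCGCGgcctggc
Kif7: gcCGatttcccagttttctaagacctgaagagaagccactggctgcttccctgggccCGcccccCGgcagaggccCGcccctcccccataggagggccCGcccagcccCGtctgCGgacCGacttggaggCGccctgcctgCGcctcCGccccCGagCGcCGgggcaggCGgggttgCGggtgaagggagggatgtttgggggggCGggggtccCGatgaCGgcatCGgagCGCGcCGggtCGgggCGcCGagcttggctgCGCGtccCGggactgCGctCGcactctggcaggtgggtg
Smarcd1: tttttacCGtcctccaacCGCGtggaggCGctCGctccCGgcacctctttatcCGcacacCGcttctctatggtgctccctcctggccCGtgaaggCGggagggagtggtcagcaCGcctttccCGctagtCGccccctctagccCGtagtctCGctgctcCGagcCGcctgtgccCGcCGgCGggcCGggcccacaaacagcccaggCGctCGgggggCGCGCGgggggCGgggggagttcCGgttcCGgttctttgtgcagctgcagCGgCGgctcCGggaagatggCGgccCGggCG

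These 6 member promoters ranged widely in CpG content. The Cd5l window held 0 CpG dinucleotides, R3hdm2 and Ak1 held 2 each, Cyth1 held 8, Abl1 held 23 and Kif7 held 31, beside 35 in Smarcd1. Cd5l encodes a secreted scavenger receptor protein made by tissue macrophages that limits their apoptosis. Kif7 is a kinesin-family regulator of Hedgehog signalling at the cilium, Abl1 a tyrosine kinase, Ak1 an adenylate kinase and Cyth1 an exchange factor for Arf GTPases. The members at R3hdm2, Ak1, Cyth1 and Abl1 were placed inside the gene, so those windows belong to start sites away from the gene's outer ends, while those at Cd5l and Kif7 lay at a boundary.

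Each peak carries a score from the caller, a whole number that rises with confidence in the peak, and a region was given the highest score of its peaks in a library. The Cd5l member, chr3:87357627-87358155, scored 481 in KO oxLDL, 566 in WT oxLDL, 747 in KO untreated and 614 in WT untreated cells. The R3hdm2 member scored 686 in KO oxLDL, 576 in WT oxLDL, 1211 in KO untreated and 795 in WT untreated cells. The Kif7 member scored 591 in KO oxLDL, 485 in WT oxLDL, 914 in KO untreated and 684 in WT untreated cells. All 3 were highest in the KO untreated library, as were 90.8% of all members. Cd5l alone of these 3 scored lower in KO than in WT cells under oxLDL.

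Members seldom touched a promoter, and the promoters they touched held fewer CpG dinucleotides than those under regions called everywhere. Only 534 members (2.36%) touched a promoter window, against 6607 of the regions called in all 12 libraries (38.1%). Members touched 580 windows of 529 genes, and 50 of those genes (9.45%) also had a window under a region called in all 12 libraries. The median member window held 14 CpG dinucleotides (quartiles 6 and 26) and 60.3% GC. Windows under regions called in all 12 libraries held a median of 23 CpG (quartiles 16 and 31) and 62.3% GC, and all 20085 windows held a median of 14 (quartiles 4 and 25) and 57.0% GC. Windows under regions called in the 4 first-cohort and 1 to 7 ApoE KO libraries lay between, with a median of 18 CpG (quartiles 10 and 27). Their GC was 60.3%, the same as for members.

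The CpG difference was also present among regions of roughly similar score, in the score groups that were compared. Among regions called in all 4 first-cohort libraries, ranked into quintiles by the geometric mean of their 4 scores, the median CpG count in quintile 3 was 13 over 93 member windows, against 22 over 350 windows under regions called in all 12 libraries. In quintile 2 it was 11 over 153 member windows, against 21 over 49. In quintile 4 it was 8 over 20 member windows, against 23 over 1945. Within these quintiles member promoters thus held fewer CpG than promoters called everywhere. Quintile 1 held 313 of the 580 member windows, with a median of 18 CpG, and was not compared. Windows of neighbouring starts can share bases, so windows are not independent, and no test was made.

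**Figure D1:**
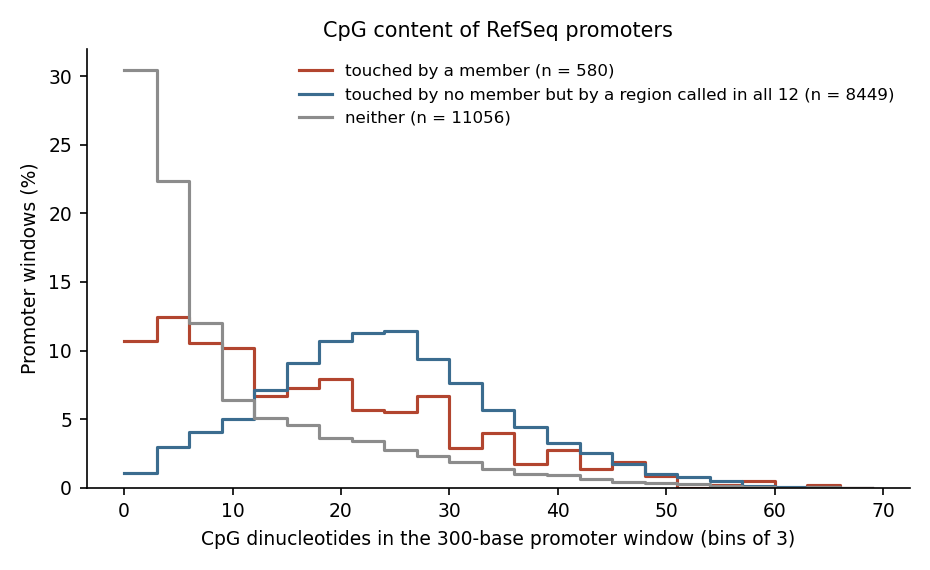
Share of RefSeq promoter windows (vertical axis, %) by number of CpG dinucleotides (horizontal axis, bins of 3) for windows touched by a member (red, n = 580), touched by no member but by a region called in all 12 libraries (blue, n = 8449) and touched by neither (grey, n = 11056). The red line is spread over low and high counts, with a median of 14, while the blue line peaks above 20.

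Short motifs were counted in the same windows on both strands, each motif on its own, so matches may overlap. CCAAT, the core of the NF-Y box, occurred in 28.4% of member windows, against 40.2% of windows under regions called in all 12 libraries and 38.1% of all windows. GGGCGG, a GC box of the Sp1 type, occurred in 55.9% of member windows, against 69.6% and 47.0% in those same 2 sets. GCATGCGC, a core of the nuclear respiratory factor 1 site, occurred in 1.38% of member windows, against 6.33% under regions called in all 12 and 3.55% of all windows. GGGCGG and GCATGCGC each contain a CpG. Within quintile 3, GGGCGG and GCATGCGC kept a lower share in members, with 50.5% against 63.4% and 2.15% against 4.57%. CCAAT turned in quintile 3, with 34.4% of member windows against 26.3%, and in quintile 2, with 31.4% against 26.5%. In quintile 4 CCAAT was again lower, at 20% of 20 member windows against 28.7%. TGANTCA, the AP-1 core, occurred in 7.76% of member windows, against 4.22% under regions called in all 12 and 7.06% of all windows. Its share in members was also higher in quintile 2, at 8.50% against 4.08%, and in quintile 4, at 10% against 4.94%. In quintile 3 it was 4.30%, against 4.86%. GAGGAAG, which holds the purine-rich core that PU.1 and other ETS factors bind, occurred in 14.0% of member windows, against 12.7% and 13.2%. For GAGGAAG the shares were 14.0% against 14.3% in quintile 3, 13.7% against 4.08% in quintile 2 and 15% against 12.1% in quintile 4. Quintile 2 has only 49 windows under regions called in all 12, and quintile 4 only 20 member windows. CACGTG was found in 7.07%, 10.9% and 7.89% of those sets and TATAAA in 7.59%, 5.59% and 12.7%. A match is a run of letters and not a shown binding site.

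Members were the weak part of the first cohort's lists. Their median score was 160 in KO oxLDL, 111 in WT oxLDL, 359 in KO untreated and 222 in WT untreated cells. Regions called in all 12 libraries had medians of 731 in KO oxLDL, 668 in WT oxLDL, 986 in KO untreated and 853 in WT untreated cells. The middle 50% of members did not reach the middle 50% of those regions in any of the 4 libraries. Members were also short, with a median length of 464 bp against 1279 bp for regions called in all 12, and together they covered 11.8 Mb.

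**Figure D2:**
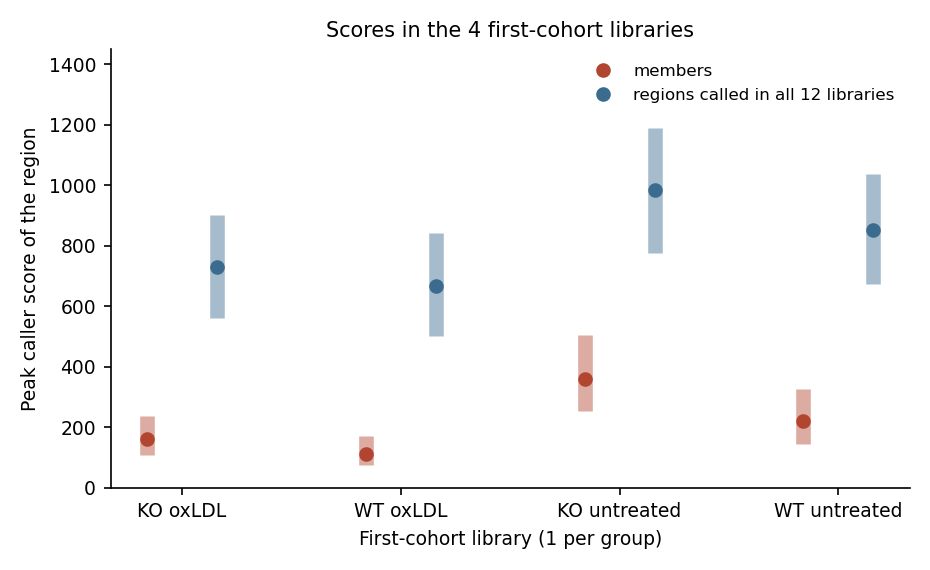
Peak caller scores (vertical axis) in the 4 first-cohort libraries (horizontal axis, 1 library per group) for members (red) and regions called in all 12 libraries (blue). Points are medians and bars run between the quartiles over regions, not over replicates; members have medians of 111 to 359 and regions called in all 12 of 668 to 986.

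Membership fell steeply with score. Members made up 73.2% of the lowest quintile, 54.1% of quintile 2, 28.1% of quintile 3, 7.18% of quintile 4 and 0.562% of the highest, which held 78 members. Quintile 1 alone held 44.9% of all members, and quintiles 4 and 5 together held few. At the edges of the rule, 12332 regions called in 3 of the 4 first-cohort and 0 ApoE KO libraries had a median lowest score of 73, members had one of 104, and 8146 regions called in 4 and in 1 ApoE KO library had one of 148. Score and membership share the same 4 lists, so this gradient describes how the rule selects.

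**Figure D3:**
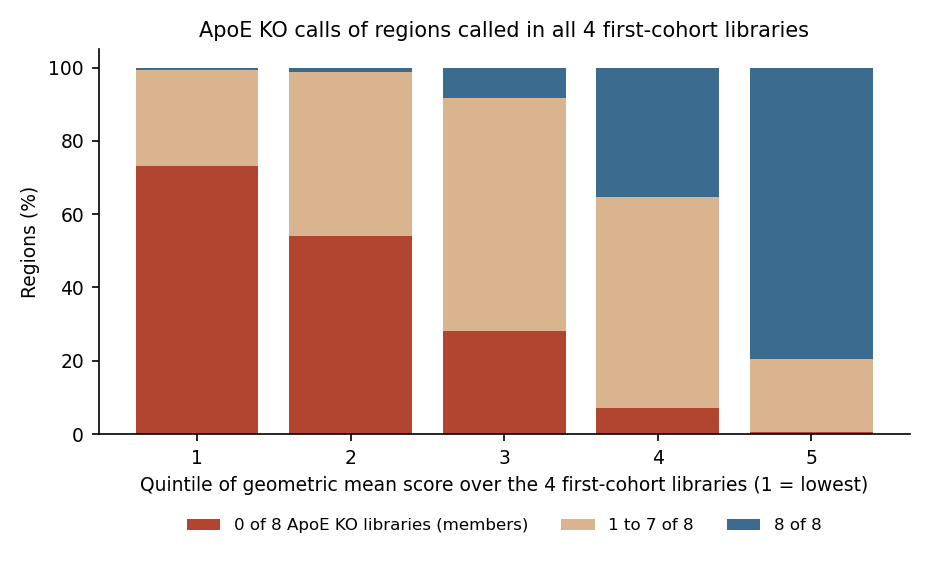
Share of regions called in all 4 first-cohort libraries (vertical axis, %) that were called in 0 (red, members), 1 to 7 (tan) or 8 (blue) of the 8 ApoE KO libraries, by quintile of geometric mean score (horizontal axis, 1 is the lowest). The red share drops from 73.2% in quintile 1 to 0.562% in quintile 5.

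Most members lay inside genes and few at their ends. By the position of a region's centre relative to RefSeq protein-coding genes, 7.05% of members lay within 1 kb of a gene boundary, 56.5% inside a gene, 27.9% outside but within 50 kb and 8.56% farther away. Regions called in all 12 libraries lay at a boundary in 42.1% of cases, inside a gene in 32.4%, within 50 kb in 18.3% and farther away in 7.14%. The boundary share of members was thus far below that of regions called everywhere, and the share inside genes far above it. Regions called in the 4 first-cohort and 1 to 7 ApoE KO libraries were much closer to members. Of those, 10.8% lay at a boundary and 48.8% inside a gene. Over all 69364 regions the shares were 17.4% and 47.2%. The annotation gives a gene's outer ends only, so a start site within a gene counts as inside.

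The difference in placement was also present within score quintiles. In quintile 4, 5.12% of members lay at a boundary, against 20.5% of the other regions of that quintile, and 59.6% lay inside genes, against 44.8%. In quintile 1 the boundary shares were 8.38% and 13.3%, and in quintile 5 they were 7.69% of 78 members and 40.2% of the others. Read the other way in quintile 4, 1.90% of the 2691 boundary regions were members, against 9.34% of the 6361 inside genes. Boundary regions were thus members less often than regions inside genes within every quintile. A quintile spans a range of geometric mean scores, 30.9 to 178 in quintile 1, so scores may still differ within it.

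**Figure D4:**
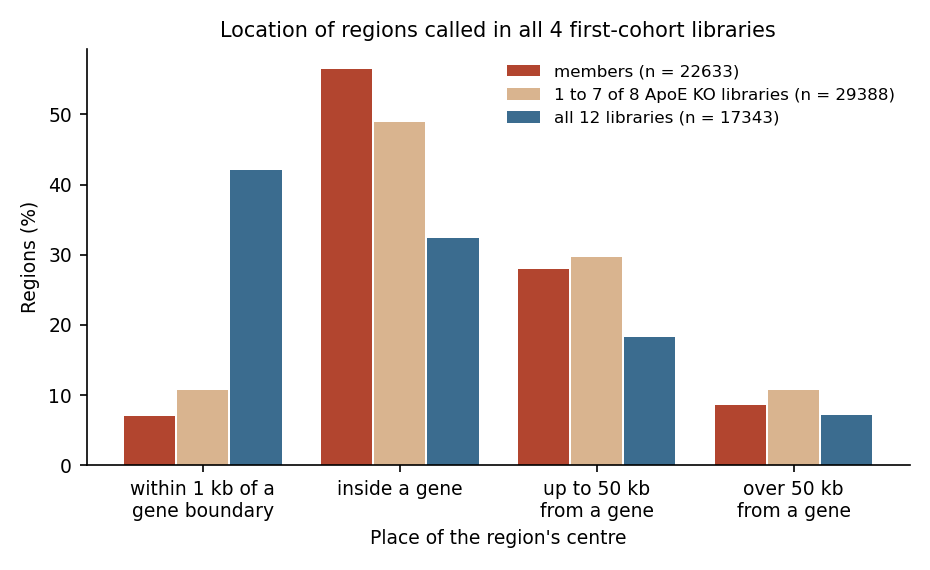
Share of regions (vertical axis, %) in each place relative to protein-coding genes (horizontal axis) for members (red), regions called in the 4 first-cohort and 1 to 7 ApoE KO libraries (tan) and regions called in all 12 (blue). Members are at a gene boundary in 7.05% of cases and inside a gene in 56.5%, against 42.1% and 32.4% for regions called in all 12.

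The 8904 members outside genes had a median distance of 14771 bp to the nearest gene. Small RNA genes were seldom overlapped, with 8 members (0.0353%) over a tRNA gene and 13 (0.0574%) over a miRNA gene. Of the regions called in all 12 libraries, 101 (0.582%) and 80 (0.461%) overlapped one, and of all 69364 regions 0.216% and 0.177% did. Long noncoding RNA genes were overlapped by 11.3% of members, against 14.4% of regions called in all 12 and 12.7% of all regions. Region length differs between these sets and was not matched. The member share of regions called in all 4 libraries ranged over chromosomes from 26.6% on chromosome 13 to 38.7% on chromosome 11.

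Members were spread singly as well as in runs. Counted along each chromosome among regions that all 4 libraries of the first cohort called, members formed 13994 runs with no other region in between, and 8942 members (39.5%) stood alone. Runs of at least 5 numbered 402 and held 2400 members, and 17 runs had at least 10. The longest runs had 12 members each, across U2af1, Cryaa and Sik1 at chr17:31664571-31801264 and across Zfand3 and Btbd9 at chr17:30024704-30229229. Sik1 is a salt-inducible kinase and U2af1 a splicing factor. A run of 10 members filled 52.5 kb at Ms4a8a and Ms4a20 on chromosome 19, in the Ms4a cluster of membrane proteins.

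The strongest member was an exception in kind. The region chr17:39846576-39847843 scored 1553 in KO oxLDL, 1472 in WT oxLDL, 1656 in KO untreated and 1548 in WT untreated cells, and it overlapped Rn18s-rs5, which is annotated as a pseudogene and named for small-subunit ribosomal RNA. Ribosomal RNA genes are repeated, so reads from other copies may have been counted there, and how such reads were handled is not given. Its nearest protein-coding gene, Esp38, lay 103 kb away. The next members by lowest score lay inside Efcab5 (778 in its lowest library), at the boundary of Patz1 (776), 17.7 kb from Arid3b (767), inside Gm7244 (741) and at the boundary of H2-Eb2 (716). Patz1 and Arid3b encode DNA-binding proteins, and H2-Eb2 encodes an MHC class II beta chain. Galnt2, which starts mucin-type glycosylation, held one with a lowest score of 703, and Mettl7a3 had one at 701 that lay 1502 bp away. Genes are named here by position alone, and none is shown to be controlled by the region.

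The last of the 10 strongest members lay outside genes, nearest to Mylip and Tle3. A member 78.1 kb from Mylip, at chr13:45311297-45311956, scored 780 in KO oxLDL, 699 in WT oxLDL, 1207 in KO untreated and 819 in WT untreated cells. Mylip is an LXR-induced ubiquitin ligase that sends the LDL receptor for degradation. A member 6.01 kb from Tle3, a Groucho-family corepressor, scored 1027 in KO oxLDL, 697 in WT oxLDL, 1411 in KO untreated and 932 in WT untreated cells. Both scored higher in KO than in WT cells and lower with oxLDL than without, as did 78.7% and 88.7% of all members.

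The longest member, 2542 bp, lay 1260 bp from Tuba1c, an alpha-tubulin gene. The next 4, of 2134 to 2223 bp, lay inside Srp68, 30.1 kb from Mrtfb, 1279 bp from Fam20c and inside Tesc. Srp68 encodes a subunit of the signal recognition particle and Mrtfb a coactivator of serum response factor. The Tuba1c member scored 99 in KO oxLDL, 76 in WT oxLDL, 204 in KO untreated and 140 in WT untreated cells. Of these 5, Srp68 and Mrtfb were in quintile 3, Tesc in quintile 2, and Tuba1c and Fam20c in quintile 1. Quintile 3 held 17.2% of all members, quintile 2 held 33.2% and quintile 1 held 44.9%.

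Members were found at many genes. Of 20665 autosomal protein-coding genes, 6827 (33.0%) had a member inside or within 1 kb, and 2317 of those had no region called in all 12 libraries. Lpp, a LIM-domain protein of cell adhesions, held most, with 31 members among its 51 regions called in all 4 first-cohort libraries and 3 regions called in all 12. Lrmda held 25 of 39, Maml3, a Notch coactivator, 22 of 42, and Ankrd11, Gse1 and Nav2, which tied, held 19 each of 29, 37 and 45. Lrmda spans 1037 kb, while Ankrd11 spans 159 kb.

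Macrophage identity genes carried members beside regions called everywhere. Of 32 such genes 15 (46.9%) had a member, where 33.0% of all genes did. A region called in all 12 libraries was present at 26 (81.25%), where 49.9% of all genes had one. At a boundary, 2 of 32 (6.25%) had a member, near the 7.86% over all genes, and 20 of 32 (62.5%) had a region called in all 12, against 40.3% over all genes. Of the regions at these genes that all 4 first-cohort libraries called, 41 of 147 (27.9%) were members, against 31.3% over all genes, counting a region once for each gene. Runx1, which encodes a transcription factor of blood development, held 11 members among 25 regions. Adgre1, which encodes the macrophage surface protein F4/80, held 3 of 5, and no member lay at Lyz2 or Apoe.

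The boundary members of macrophage genes were at Cd14, a coreceptor for lipopolysaccharide, and Cebpb, a transcription factor of myeloid cells and inflammation. The Cd14 member, 887 bp from the gene, scored 159 in KO oxLDL, 146 in WT oxLDL, 189 in KO untreated and 227 in WT untreated cells. The Cebpb member, 352 bp from the gene, scored 68 in KO oxLDL, 86 in WT oxLDL, 123 in KO untreated and 150 in WT untreated cells. Cebpb scored lower in KO than in WT cells with and without oxLDL, as only 2.15% of members did.

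Genes of remodelling and lipid handling held members in shares near the overall 31.3% or on both sides of it. SWI/SNF subunit genes had 44 members among 136 regions (32.4%) at 18 of 28 genes (64.3%), where 33.0% of all genes had a member. Their median length was 31.6 kb, against 17.5 kb over all genes, and gene length was not matched for any list. Arid1b, which encodes a large DNA-binding subunit, held 13 of 38, and Smarca4, which encodes the ATPase, held 4 of 6. Smarcd1 had 1 member, inside the gene at chr15:99705573-99705960, which scored 150 in KO oxLDL, 135 in WT oxLDL, 344 in KO untreated and 325 in WT untreated cells. Receptors for modified LDL had 34 of 102 (33.3%) at 10 of 17 genes, with 6 of 21 at the fatty acid and oxLDL receptor Cd36 and 9 of 17 at Lrp1. Cholesterol efflux and LXR genes had 30 of 124 (24.2%) at 10 of 25 genes, with 6 of 15 at the exporter Abca1 and 6 of 10 at the exporter Abcg1. PPAR and lipid handling genes had 33 of 84 (39.3%) at 15 of 28 genes, with 6 of 14 at Pparg.

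Shares at inflammatory, stress, cell cycle and mitochondrial genes ran from 16.0% to 29.0%, most of them near the 31.3% over all genes. NF-kB inflammatory genes had 23 members among 84 regions (27.4%) at 12 of 36 genes. Interferon response genes had 18 of 68 (26.5%) at 13 of 28, and lysosome and autophagy genes 35 of 128 (27.3%) at 14 of 29. Antioxidant genes had 8 of 50 (16.0%) at 5 of 21, where 33.0% of all genes had a member. Of those 21 genes, 19 (90.5%) had a region called in all 12 libraries, where 49.9% of all genes did. Cell cycle genes had 17 of 77 (22.1%) at 7 of 30, and genes of mitochondrial biogenesis and dynamics had 20 of 69 (29.0%) at 7 of 26. Antioxidant and mitochondrial genes had 0 boundary members, where 7.86% of all genes had one, and 15 of 21 and 23 of 26 of them had a boundary region called in all 12, where 40.3% of all genes did.

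Nos2, which encodes inducible nitric oxide synthase, was picked after its values were seen, because all 4 of its regions were members. The member 125 bp from the Nos2 boundary, chr11:78920474-78920850, scored 339 in KO oxLDL, 182 in WT oxLDL, 321 in KO untreated and 271 in WT untreated cells. Inside Nos2 the member with the highest scores had 326 in KO oxLDL, 162 in WT oxLDL, 512 in KO untreated and 242 in WT untreated cells. Il1b, the interleukin-1 beta gene and picked in the same way, had its only region 59 bp from the gene, with scores of 156 in KO oxLDL, 120 in WT oxLDL, 299 in KO untreated and 190 in WT untreated cells. In these 3 members KO cells scored above WT cells in both treatments, as in 78.7% of all members.

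Genes that mark other blood and tissue cells were also read. B cell genes had the highest share of the 20 lists, with 15 of 19 regions (78.9%) being members at 7 of 12 genes, among them all 5 at the kinase gene Blk, 2 of 2 at Pax5 and 2 of 2 at Cd22. T and NK cell genes had 7 of 17 (41.2%) at 4 of 18, neutrophil genes 8 of 20 (40.0%) at 6 of 18, and mast cell and basophil genes 5 of 13 (38.5%) at 3 of 11. Endothelial genes had 14 of 38 (36.8%) at 8 of 14, fibroblast and stromal genes 10 of 26 (38.5%) at 5 of 16, and dendritic cell genes 18 of 60 (30%) at 6 of 14. Neuronal and synaptic genes had 13 of 46 (28.3%) at 8 of 23, and erythroid and megakaryocyte genes 2 of 19 (10.5%) at 2 of 14. Over all genes, 31.3% of regions were members and 33.0% of genes had one. The counts of these lists are small, and lists are described and not tested.

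Boundary peaks of these other-cell genes were more often called in the first cohort, whose lists are longer. Per library, 3 to 7 of 12 B cell genes had a boundary peak in the first cohort and 1 to 2 in the ApoE KO cohort. For T and NK cell genes the counts were 8 to 11 and 2 to 5 of 18, for neutrophil genes 9 to 11 and 3 to 6 of 18, and for endothelial genes 5 to 10 and 1 to 2 of 14. Mast cell and basophil genes had 3 of 11 in every first-cohort library and 0 to 1 in the others. Dendritic cell genes had 8 to 11 and 4 to 7 of 14, erythroid and megakaryocyte genes 6 to 9 and 2 to 4 of 14, and fibroblast and stromal genes 5 to 9 and 1 to 4 of 16. For each of these lists the first-cohort counts lay above the ApoE KO counts. The same count per library was not made over all genes, so it is unknown whether these lists differ from other genes in this. The part of other cells in the membership was not tested.

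Boundary members at other-cell genes included transcription factors and granule genes. The Ebf1 member, 812 bp from this B cell factor, scored 215 in KO oxLDL, 92 in WT oxLDL, 639 in KO untreated and 561 in WT untreated cells. The Cd2 member, 270 bp from this T cell adhesion gene, scored 362 in KO oxLDL, 198 in WT oxLDL, 793 in KO untreated and 469 in WT untreated cells. The Mmp9 member, inside this gelatinase gene 890 bp from its boundary, scored 469 in KO oxLDL, 377 in WT oxLDL, 635 in KO untreated and 511 in WT untreated cells. All 3 were highest in KO untreated and lowest in WT oxLDL cells, as was usual for members. The calprotectin gene S100a9 had one with 235 in KO oxLDL, 65 in WT oxLDL, 332 in KO untreated and 120 in WT untreated cells, a larger gap between KO and WT. Further boundary members lay at Blk, Tbx21, Tcf7, Lcn2, Cebpe, Hdc, Gp1ba, Esam and Cldn5, with lowest scores of 46 to 151.

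Score shifts by genotype and oxLDL were then described. With 1 library per group in the first cohort there is no replicate check, and no test or p-value is given. Members scored highest of the 4 libraries in KO untreated cells in 90.8% of cases and lowest in WT oxLDL cells in 75.3%. KO scores exceeded WT scores in both treatments in 78.7% of members, and oxLDL scores were below untreated scores in both genotypes in 88.7%. This order of libraries is also the order of their list lengths, so the shifts below are given as deposited and after subtraction of the median over all 69364 regions. The shares above were not counted over all regions, but each comparison taken singly was close to the whole list. KO scored above WT in 82.7% of members with oxLDL and 93.7% untreated, against 81.1% and 92.1% of all regions. With oxLDL, 3.47% of members scored higher in KO and 9.80% in WT cells, against 2.70% and 7.11% of all regions.

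The median log2 ratio of KO over WT scores among members was 0.47 with oxLDL and 0.66 untreated, against 0.28 and 0.40 over all 69364 regions. Centred on all regions, the member medians were 0.20 and 0.26. The median log2 ratio of oxLDL over untreated scores was -1.11 in KO and -0.92 in WT members, against -0.75 and -0.62 over all regions, and -0.36 and -0.30 after centring. Members thus shifted farther than the whole list in each of the 4 comparisons, in the direction the whole list took. For regions called in all 12 libraries the KO over WT medians were 0.11 and 0.19, and the oxLDL over untreated medians were -0.39 in KO and -0.32 in WT cells.

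For KO over WT in untreated cells, weaker regions shifted farther whether or not they were members. This did not hold in every comparison. For oxLDL over untreated in WT cells, members had -0.92 in quintile 1 but -0.99 in quintile 2. In untreated cells the median KO over WT ratio of members was 0.80 in quintile 1, 0.64 in quintile 2, 0.55 in quintile 3, 0.46 in quintile 4 and 0.40 in quintile 5. Other regions of those quintiles had medians of 0.67, 0.56, 0.44, 0.31 and 0.19. Members were thus above the others within each quintile for this ratio. For oxLDL over untreated in WT cells, members had -0.92 and other regions -0.99 in quintile 1, while in quintile 4 members had -0.72 and other regions -0.51. The order of members and others thus turned between quintiles for oxLDL. Centred within quintiles, the members' median shift was 0.06 for KO over WT and -0.04 for oxLDL over untreated, against 0.24 and -0.33 when centred on the whole list, each averaged over both strata.

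**Figure D5:**
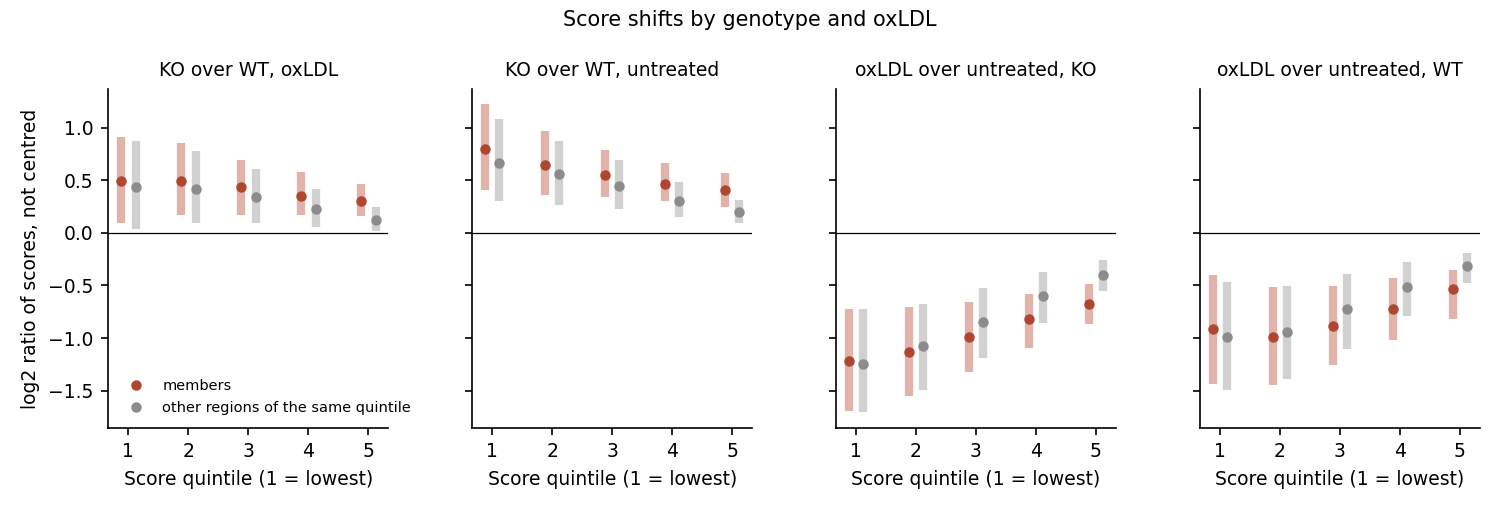
Log2 ratios of scores, not centred (vertical axis), by score quintile (horizontal axis, 1 is the lowest) for members (red) and other regions called in all 4 first-cohort libraries (grey), in 4 panels from KO over WT with oxLDL to oxLDL over untreated in WT. Points are medians and bars run between the quartiles over regions; in both sets the medians move towards 0 from quintile 2 to quintile 5.

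A region was counted as past the fold when its centred score ratio exceeded 2-fold in the same direction in both strata. For KO over WT, 510 members (2.25%) were past it upward, where 1.07% of all 69364 regions were, and 5 downward, where 0.0101% were. For oxLDL over untreated, 201 members (0.888%) were past it upward, where 0.490% of all regions were, and 1730 (7.64%) downward, where 4.17% were. These counts depend on the centring: centred within quintiles they became 142 and 38 for KO over WT and 626 and 626 for oxLDL. The centred shift had opposite signs in the 2 treatments in 34.1% of members for KO over WT, and in the 2 genotypes in 24.4% for oxLDL over untreated.

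The largest KO over WT shifts upward were at Tmem269, Ehf, Arhgef10l, Ly75 and Zcwpw2. The Tmem269 member, inside the gene at chr4:119210658-119211054, scored 189 in KO oxLDL, 36 in WT oxLDL, 332 in KO untreated and 48 in WT untreated cells. That is a centred log2 ratio of 2.12 with oxLDL and 2.39 untreated. The Ehf member, 28.5 kb from this ETS factor gene, scored 213 in KO oxLDL, 45 in WT oxLDL, 282 in KO untreated and 48 in WT untreated cells. The Ly75 member, inside the gene of an endocytic receptor of dendritic cells, scored 226 in KO oxLDL, 49 in WT oxLDL, 327 in KO untreated and 45 in WT untreated cells. In all 5 the WT libraries were at 32 to 102 and the KO libraries at 189 to 514, and all 5 were in quintile 1. They were picked for this gap, so it is not a finding.

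The 5 members past the fold downward for KO over WT were at Prep, Ccnb1ip1, Ltbp1, Lrp1 and Pnpla7. The Lrp1 member, inside the gene at chr10:127569467-127570037, scored 53 in KO oxLDL, 93 in WT oxLDL, 73 in KO untreated and 170 in WT untreated cells. Lrp1 encodes an endocytic receptor of the LDL receptor family, and its centred log2 ratios were -1.09 with oxLDL and -1.62 untreated. The Ltbp1 member, in a gene for a latent TGF-beta binding protein, scored 36 in KO oxLDL, 129 in WT oxLDL, 160 in KO untreated and 261 in WT untreated cells. The Prep member, 66.3 kb from a gene for prolyl endopeptidase, scored 49 in KO oxLDL, 92 in WT oxLDL, 110 in KO untreated and 196 in WT untreated cells. All 5 were weak, with every score at 261 or below, and without centring none of them was past the fold in both treatments.

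Upward shifts with oxLDL were largest at Gpcpd1, Efl1, Rngtt, Smap2 and Tsku. The Gpcpd1 member, 487 bp from this glycerophosphodiesterase gene, scored 192 in KO oxLDL, 59 in KO untreated, 103 in WT oxLDL and 38 in WT untreated cells. The Tsku member, 23.9 kb from a secreted leucine-rich protein gene, scored 439 in KO oxLDL, 200 in KO untreated, 451 in WT oxLDL and 83 in WT untreated cells. The Rngtt member, inside the capping enzyme gene, scored 348 in KO oxLDL, 154 in KO untreated, 349 in WT oxLDL and 82 in WT untreated cells. These members scored higher with oxLDL than without in both genotypes, but they were picked for that direction, so it is not a finding. Of all members, 2.20% scored higher with oxLDL in both genotypes.

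Downward shifts with oxLDL were larger and were led by Ssbp3, Ccdc187, Itga10, Mylk and Socs2. The Socs2 member, 26.0 kb from this inhibitor of cytokine signalling, scored 68 in KO oxLDL, 745 in KO untreated, 65 in WT oxLDL and 587 in WT untreated cells. Its centred log2 ratios were -2.70 in KO and -2.56 in WT cells. The Ssbp3 member, 30.2 kb from the gene, scored 63 in KO oxLDL, 663 in KO untreated, 40 in WT oxLDL and 376 in WT untreated cells. The Mylk member, inside the gene of myosin light chain kinase at chr16:34937452-34938381, scored 36 in KO oxLDL, 426 in KO untreated, 23 in WT oxLDL and 208 in WT untreated cells. In all 5 the oxLDL libraries were at 23 to 68 and the untreated libraries at 208 to 745, a gap for which they were picked.

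Nrf1, the nuclear respiratory factor that drives mitochondrial genes, had 3 members inside it. The strongest, chr6:30107328-30107967, scored 360 in KO oxLDL, 391 in WT oxLDL, 1064 in KO untreated and 643 in WT untreated cells. The other two had scores of 75 to 482. All 3 were lower with oxLDL than without in both genotypes, as were 88.7% of all members.

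The ApoE KO lists had no peak in a member by the rule, but peaks beyond the member's edges were not used to choose it. Over any of the 8 full ApoE KO lists, 12.3% of members had a peak within 1 kb of an edge, 40.1% within 5 kb and 65.0% within 10 kb. The same shares were not counted for other regions. Whether members lie nearer to ApoE KO peaks than other regions do is therefore unknown. With lists cut to the 24397 highest-scoring peaks each, 17.7% ± 0.607 of members had a peak within 5 kb in KO and 17.9% ± 0.896 in WT libraries (SD, n = 4 each). The difference, -0.183 percentage points, was smaller than the spread between libraries (exact permutation test within treatments, two-sided, p = 0.611). Its direction turned with full lists, at 4.23 points, within 1 kb, at 0.134 points, and without WT untreated replicate 2 or KO untreated replicate 2. With oxLDL the share was 17.4% ± 0.231, against 18.3% ± 0.795 untreated (SD, n = 4 each), a difference of -0.873 points (exact permutation test within genotypes, two-sided, p = 0.111), and with full lists the difference was -5.23 points. This design has 36 arrangements and cannot give a p below 0.0556, so neither comparison could pass 0.05.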

How the data were processed

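ATAC-seq peaks of 12 BMDM libraries were used as deposited, 1 list per library. Per the submitters' processing notes, reads were trimmed with Trim Galore and cutadapt, aligned to mm10 with Bowtie2 2.3.4.1, and handled with Picard, SAMtools 1.2 and bedtools 2.28.0; the notes name MACS3 for the first cohort and MACS2 for the ApoE KO cohort, with no thresholds. The values used are the authors' peak scores, whole numbers of at least 13 in the fifth column of each deposited list, and they were compared only within the first cohort. Read depth is not given, so no interval from counts was computed.

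Peaks on the X and Y chromosomes (1783 to 3309 per first-cohort library) were left out. Autosomal peaks were merged at an overlap of 1 bp, and a region took the highest score of its peaks in a library. Regions were placed by their centre against RefSeq genes of GRCm38.p6. Score ratios were log2 values centred on the median over the 69364 regions that the first cohort's 4 libraries all called. Nearby ApoE KO peaks were compared by exact permutation within strata. Named regions followed a fixed rule: the 10 highest minimum scores, the 5 largest shifts each way, the 5 longest, the 5 genes with most members (6 with ties), up to 5 boundary members per marker list, 6 promoters off chromosome 18, whose promoters were not analysed here, and members at Smarcd1, Apoe, Lyz2 and Nrf1. Nos2, Il1b and the list genes given as examples or by their member counts were picked after their values were seen. Of 440 genes in the 20 lists, 432 matched the annotation. The members and lists were chosen with earlier results of these data known. The merging and counting steps were tested on simulated data. The work used scipy 1.17.1, numpy 2.4.6 and pandas 2.3.3 under Python 3.11.15, with figures from matplotlib 3.10.9. Alternatives covered the merging, list length, score threshold, centring, fold, distance and each library left out.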

Additional observations from a re-analysis of the deposited data

Results flagged for a closer look

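Among the members with scores given by name, 13 score ratios had opposite signs in the 2 strata of a comparison. Each stratum rests on 1 library per group, so none of these differences was tested, and several of the ratios are close to 0. For KO over WT scores, the log2 ratio was -0.0041 with oxLDL and 0.91 untreated at Rngtt, -0.04 and 1.27 at Tsku, -0.03 and 0.45 at Tesc, and -0.50 and 0.78 at Blk. It was -0.15 with oxLDL and 0.67 untreated at Tbx21, -0.54 and 0.20 at Gp1ba, -0.12 and 0.73 at the strongest Nrf1 member, and 0.12 and -0.26 at Cd14. It was -0.23 with oxLDL and 0.28 untreated at Cd5l, and 0.17 and -0.026 at Abl1. For oxLDL over untreated scores, the log2 ratio was -0.53 in KO and 0.12 in WT cells at Ly75, -0.38 in KO and 0.061 in WT cells at Cebpe, and 0.08 in KO and -0.57 in WT cells at the Nos2 boundary member. These ratios are not centred. Rngtt, Tsku and Ly75 were named for a large shift in the other comparison.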

How the results depend on the processing

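The number of members stayed between 19840 and 31737 under the other settings tried, except at 34965 when calls in 3 of the 4 first-cohort libraries sufficed; leaving out 1 library in turn gave 22805 to 31737, the highest without the first-cohort WT oxLDL library. Cutting lists to equal length (80394 and 24397 peaks) gave a KO over WT shift of 0.19 and counts past the fold of 291 up and 0 down, and 62 up with oxLDL. Without centring the shifts were 0.58 for KO over WT and -1.02 for oxLDL over untreated, with counts of 1861 and 0, and 7 and 8277. Centring within quintiles gave 0.0575 and -0.0429, with counts of 142 and 38, and 626 and 626. A 1.5-fold threshold gave 2402 and 99, and 773 and 4912. Members with no ApoE KO peak within 1 kb had shifts of 0.26 and -0.37, merging at 0.5 overlap without chains gave 0.24 for KO over WT, and mean instead of highest scores gave 0.22 and -0.31. Without the 3 ApoE KO libraries marked L001, a setting chosen after seeing the data, they were 0.22 and -0.31. Leaving out 1 ApoE KO library gave KO over WT shifts of 0.22 to 0.24. The cause of these changes was not tested. The genotype difference in nearby peaks turned to 0.134 points within 1 kb and 4.23 with full lists, and ranged from -0.526 to 0.159 with 1 library left out, above 0 without WT untreated replicate 2 or KO untreated replicate 2. With the replicate number as a replicate block, the differences were -0.183 (exact permutation p = 0.875) and -0.873 (p = 0.25), where the smallest possible p is 0.125; the labels do not say that a number marks a shared animal. No first-cohort shift could be computed with a library of that cohort left out.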

Other observations

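Peaks on the X and Y chromosomes entered no comparison. The first-cohort lists held 2034 of them in KO oxLDL, 1783 in WT oxLDL, 3309 in KO untreated and 2457 in WT untreated cells, and the ApoE KO lists held 0.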
